A study of Homo sapiens with 2 samples.

Results

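Guides against 60 genes for ribosomal RNA processing and nucleolar factors were examined in a pooled CRISPR knockout screen. The genes were taken from a list of names, all 60 were found in the count table with 6 guides each, and together they held 360 of the 114123 guide rows against protein-coding genes. The screened cells were SK-OV-3, an established human ovarian cancer line, stably carrying a transcriptional readthrough (TRT) reporter in an EF1a-driven lentiviral vector. In the reporter, mCherry stands in place of most of the coding sequence of COMMD3 and EGFP in place of that of BMI1, so that EGFP is made only when transcription reads through from the first gene into the second. The GeCKO v2.0 library was introduced at a multiplicity of infection of about 0.3, puromycin was applied at 2 µg/mL, and guide cassettes were sequenced from unsorted cells and from sorted mCherry+ EGFP- cells (TRT-negative), with 1 library per condition. All cells in both libraries therefore carried the reporter, the library and the selection. The control's label names both fluorescent proteins, so it might stand for cells sorted as positive for both. The design text speaks of unsorted cells, and all ratios rest on reading the control that way. Guide counts carry no expression markers, so the cell type was not checked here, nor was the position of a guide within its gene. With 1 library per condition there was no replicate, no test was made, and each interval covers the counting of reads or guides only.

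Ribosomal RNA is transcribed by RNA polymerase I in the nucleolus as one long precursor, which is folded, chemically modified at many positions, and cut into the mature RNAs of the small (40S) and large (60S) subunits. Small nucleolar ribonucleoproteins (snoRNPs) guide the modifications, the small-subunit processome assembles on the precursor and releases the pre-40S particle, a separate set of helicases, GTPases and nucleases matures the 60S particle, and RNase MRP, which shares most of its protein subunits with the tRNA-processing enzyme RNase P, cuts within the precursor. Most of these proteins are needed for the growth of dividing cells.

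Coverage of the library was sparse. Of 123411 rows, 12956 (10.5%) had a read among the 12882989 reads of the unsorted library and 28064 (22.7%) among the 12444427 reads of the TRT-negative library. The nucleolar factor guides took 25730 unsorted reads (0.20%, 95% exact interval 0.197 to 0.202) and 23312 TRT-negative reads (0.187%, 0.185 to 0.190), although they made up 0.292% of all rows. Reads without molecular identifiers are not independent molecules, so these intervals cover counting error only. The totals also rest on few guides, since 1 DDX21 guide held 3889 unsorted and 6441 TRT-negative reads and 1 LTV1 guide held 1593 and 4140. Since most guides were unread, a typical member was represented by 1 or no guide before sorting.

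Fewer nucleolar factor guides were read than the protein-coding average in both libraries. In the unsorted library 29 of 360 guides had a read (8.06%, exact Clopper-Pearson 95% interval 5.46 to 11.4), against 10.5% of all protein-coding guides. In the TRT-negative library 66 were read (18.3%, 14.5 to 22.7), against 22.6%. The interval included the protein-coding share in the unsorted library, and its upper end lay just above that share in the TRT-negative library. The 29 guides belonged to 19 of the 60 genes (31.7%, 20.3 to 45.0), where 46.9% of all protein-coding genes had a guide read before sorting. After sorting, 42 of the 60 genes had a read (70.0%, 56.8 to 81.2), against 77.0%. The guides that were read had a median of 779 unsorted reads, against 770 over all protein-coding guides, and of 48.5 TRT-negative reads, against 66.0.

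Related gene classes were read at shares from 5.0% to 10.1% before sorting. Of guides against 81 other ribosome biogenesis factors, 10.1% were read before and 21.2% after sorting. Guides against 79 ribosomal protein genes were read in 8.05% and 17.2%, and those against 20 genes of the RNA polymerase I machinery in 5.0% and 16.7%. Guides against 376 olfactory receptor genes, which most cells do not use, were read in 10.7% and 22.4%, close to the protein-coding average. Non-targeting rows were read in 17.7% and 35.6%, above every targeting class shown. Each of the 1000 control guides is listed with 2 identical rows, so these shares are not like for like with those of targeting guides. No loss of targeting guides can be read from this gap, whose source was not tested.

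**Figure D1:**
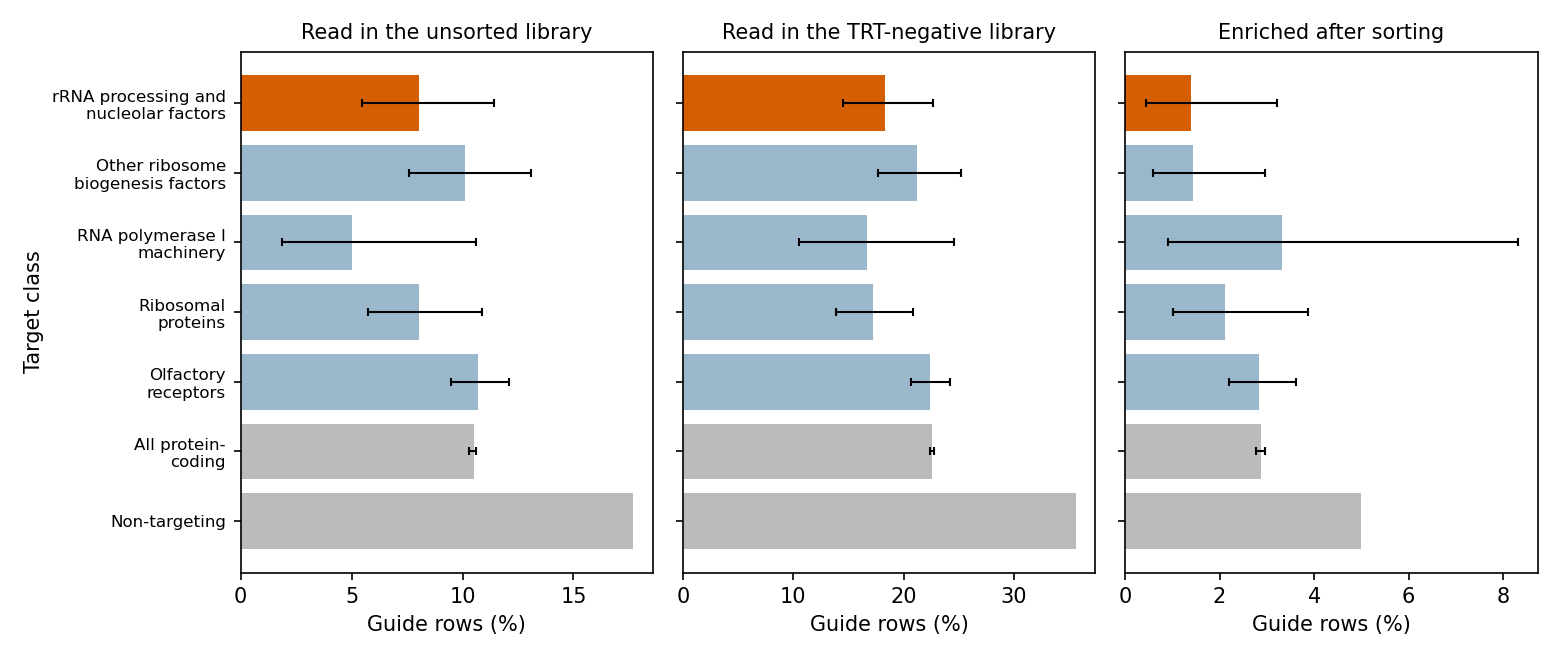
Share of guide rows, in percent, read in the unsorted library (left), read in the TRT-negative library (middle) and enriched after sorting (right) for each target class, with exact 95% intervals as error bars except for non-targeting rows, whose rows come in identical pairs. The nucleolar factors sit at 8.06%, 18.3% and 1.39%, below the protein-coding bars in all panels, with an interval that overlaps the protein-coding value in each.

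Of the 60 genes, 18 had no read on any of their guides in either library (95% interval 18.8% to 43.2%), against 22.1% of all protein-coding genes. DKC1 (the pseudouridine synthase dyskerin) and NOP10, core proteins of the box H/ACA snoRNPs, were in this group. So were 6 small-subunit processome genes, namely HEATR1, NOP14, DDX10, DDX52, IMP4 and EMG1, and the pre-40S kinase gene RIOK2. From the large-subunit pathway, WDR12, a partner of PES1 and BOP1, the rRNA methyltransferase NOP2, RRP1, the GTPase GNL3 (nucleostemin), the ATPase NVL and the polynucleotide kinase NOL9 had no read. The RNase MRP and P subunits RPP30 and RPP40 and the abundant histone chaperone NPM1 (nucleophosmin) completed the group. For these 18 genes, and their 108 guides, the screen holds no measurement in either direction, and absence before sorting cannot be told apart from uneven representation of the library.

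Guides read only after sorting were common throughout the screen. They numbered 39 among the nucleolar factor guides (10.8%, 7.82 to 14.5), against 12.6% of all protein-coding guides, and their median was 35.0 reads, as it was over all protein-coding guides of this kind. In 23 of the 60 genes every guide that was read was of this kind, against 30.9% of all protein-coding genes. For each guide the log2 ratio of normalized counts was taken, TRT-negative over unsorted with 1 added to each. Enriched guides were those with a ratio above 5.93, the 95th percentile in the non-targeting rows. At that threshold a guide without unsorted reads needed 60 TRT-negative reads, and 99.4% of enriched protein-coding guides had no unsorted read. Enrichment was met by 5 nucleolar factor guides of 360 (1.39%, 0.452 to 3.21), against 2.87% of protein-coding guides. The 5 guides lay in 5 genes (8.33%, 2.76 to 18.4), against 16.0% of protein-coding genes. No gene had 2 enriched guides, where 1.15% of protein-coding genes did, and the exact 95% interval for 0 of 60 genes reached 5.96%. Counts this close to or below the background give no result about the class.

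FBL, the methyltransferase fibrillarin that modifies rRNA within box C/D snoRNPs, had the most-read of these guides. The gene lies on chromosome 19 from 39834458 to 39846379 (hg38, minus strand). One FBL guide had 0 unsorted and 283 TRT-negative reads, a log2 ratio of 8.18 and at least 97.9-fold more normalized reads when 3 unsorted reads are taken as the floor. A second guide went from 0 to 46 reads and did not reach the threshold, and the remaining FBL guides had no read. As many reads or more were found on 154 of the 14434 protein-coding guides read only after sorting (1.07%).

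The other enriched guides were close to the threshold. NOP16, a 60S assembly factor, had 1 guide at 0 and 89 reads (log2 6.52, at least 30.8-fold) and no other read guide. For the RNA helicase gene DDX56, also of the 60S pathway, 1 guide went from 0 to 81 reads (log2 6.38, at least 28.0-fold). TSR1, a factor bound to late pre-40S particles, gave the same pair of counts on 1 guide, and its other read guides reached 21 and 1 reads from 0. RPP38, a subunit of RNase P and MRP, had 1 guide at 0 and 62 reads (at least 21.5-fold). Just outside the threshold were single guides of EBNA1BP2 with 54 reads (log2 5.81) and of RRP12 with 52 reads (log2 5.75), both from 0. The EBNA1BP2 row lies beside a row with identical counts, the 1 such row among the members.

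In no member did a second guide reach the threshold. Alongside its enriched guide, RPP38 had a second guide that went from 415 to 121 reads, a log2 ratio of -1.72. DDX56 had 2 further guides, one from 343 to 697 reads (log2 1.07) and one from 2164 to 2618 (log2 0.33, 1.26-fold). Both were higher after sorting, while its enriched guide had no unsorted read and could only be higher. All 3 read guides of DDX56 were of half-library A. Of the 5 enriched guides, 4 came from half-library A of the GeCKO design and 1 from half-library B, and nucleolar factor guides were read after sorting in 22.8% of A and 13.9% of B. Over all protein-coding guides these shares were 22.9% and 22.3%.

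In the wider pathway enriched guides were also single ones. This was common throughout the screen, where 1.15% of all protein-coding genes had 2 or more enriched guides. Among the 81 other ribosome biogenesis factors, 7 of 485 guides were enriched (1.44%), each in a different gene, against 2.87% of all protein-coding guides. XRN2, the nuclear exonuclease that trims rRNA precursors and acts in transcription termination, had 1 guide at 0 and 101 reads (log2 6.70) and another that went from 826 to 354 (log2 -1.17). DDX54, an RNA helicase, had 1 guide at 0 and 104 reads (log2 6.74) and another from 1272 to 209 (log2 -2.55). The ATPase MDN1, which remodels pre-60S particles, had 1 guide at 0 and 65 reads (log2 6.07), with others at 0 and 53 reads and at 32 and 82. Ribosomal protein genes had 10 enriched guides (2.12%) and the RNA polymerase I machinery 4 (3.33%). One of these 4 was the RRN3 guide, against the polymerase I initiation factor, with 0 and 1580 reads (log2 10.65), while its 5 other guides had no read.

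**Figure D2:**
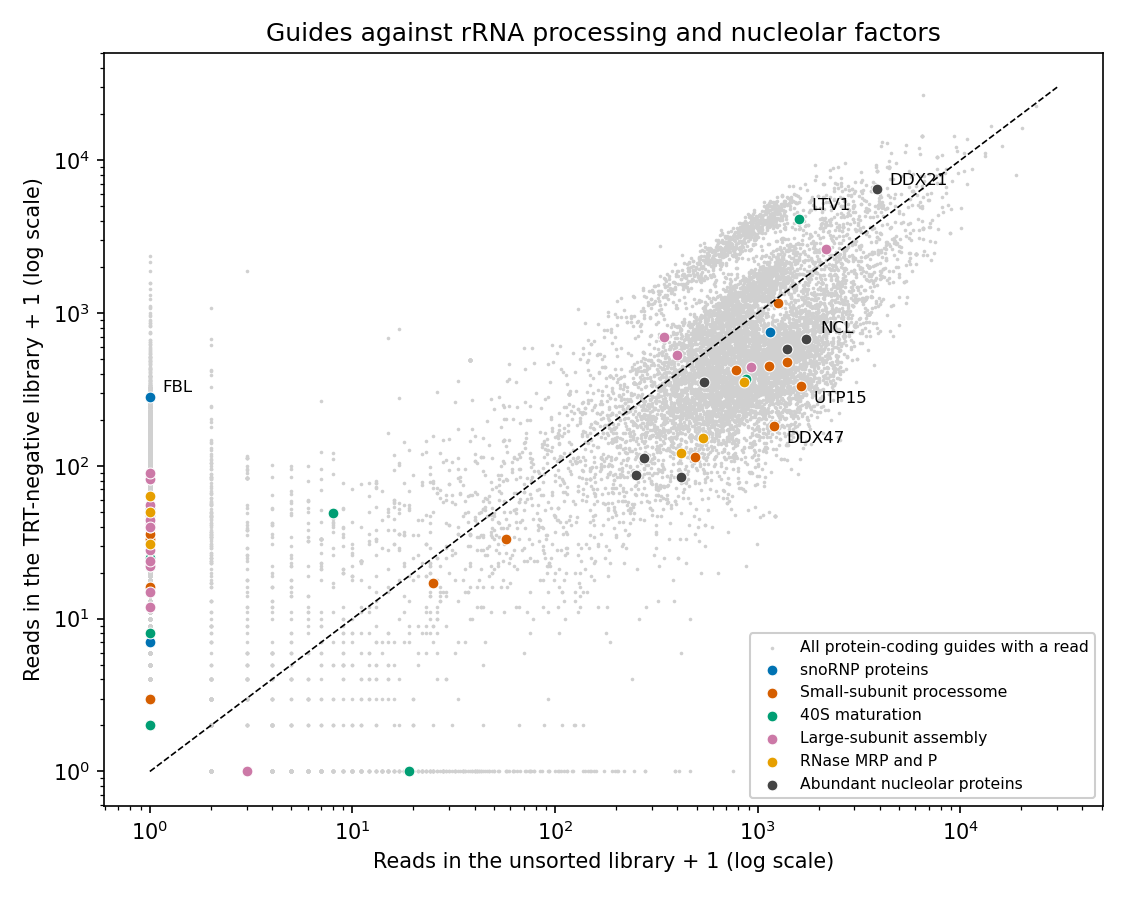
Reads per guide in the unsorted (x axis) and TRT-negative (y axis) libraries, each plus 1 on a log scale, for the nucleolar factor guides coloured by role and for all protein-coding guides with a read in grey. The dashed line marks equal reads. Member guides form a column at 0 unsorted reads, topped by FBL at 283, and a cloud above 100 unsorted reads that lies mostly below the line, with LTV1 (1593 and 4140) and DDX21 (3889 and 6441) above it.

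A ratio can be measured in both directions only for guides that were well read before sorting. A minimum of 30 unsorted reads was met by 25 nucleolar factor guides of 17 genes, 12 of them with 1 such guide. Their median log2 ratio was -1.21 (95% order-statistic interval -1.48 to -0.57, SD 1.07), with a range from -2.67 to 1.43. The 10616 well-read protein-coding guides had a median of -0.64, with quartiles of -1.39 and 0.41 and an SD of 1.40. Of the 25 guides, 15 were lower by over 2-fold (95% interval 38.7% to 78.9%), against 39.2% of protein-coding guides and 47.4% of non-targeting rows. Only 2 were higher by over 2-fold (8.00%, 0.984 to 26.0), against 12.1%. The lower end of the first interval fell just below the protein-coding share. That interval treats the 25 guides as independent, although several share a gene, so it is too narrow to serve as a test. The 15 lower guides lay in 11 of the 17 genes, where 45.7% of protein-coding genes with a well-read guide had a lower one. By half-library, 10 of 14 guides were lower in A (71.4%, protein-coding 40.3%) and 5 of 11 in B (45.5%, protein-coding 38.2%). Most of the excess over the protein-coding share thus lay in half-library A.

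How many guides count as lower depended on the scaling. Relative to the protein-coding median, 6 of the 25 were lower by over 2-fold (24.0%, 9.36 to 45.1), against 18.0% of protein-coding guides, and 4 were higher (16.0%) against 26.0%. With both libraries scaled to equal non-targeting totals, which moved the protein-coding median from -0.64 to -0.34, 9 were lower (36.0%) against 28.0%, and 3 were higher (12.0%) against 17.6%. The median of the members was -0.92 under the non-targeting scaling. Such a scaling moves all ratios by nearly the same amount, so it could not change the order of the 2 medians. Because the minimum applied to the unsorted library alone, it admits guides that were high there. With a minimum on the mean of both libraries instead, the protein-coding median was 0.05 and that of the members -0.92, and 15 of 30 guides were lower (50.0%) against 29.1%. Beyond the 25 guides, this minimum admitted only the enriched ones, which had no unsorted read and could only be higher. The 15 lower guides were the same ones, so this contrast partly restates the shares of enriched guides.

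Read depth and the shape of the distribution moved with these ratios. Among guides with 1000 or more unsorted reads the protein-coding median was -1.02 and 50.7% were lower by over 2-fold, against -0.39 and 31.1% at 300 to 1000 reads. The 11 nucleolar factor guides in the deeper class had a median of -1.21 and 6 were lower, and the 11 in the other class had a median of -1.19 and 7 were lower. The 3 guides with 30 to 300 reads had a median of -1.22, against -0.29. Over all well-read protein-coding guides the ratios fell into separate modes. In bins of 0.2 the fullest held 7.56% of guides between -1.2 and -1.0, a further peak lay at 0.4 to 0.6 (5.10%), and the last at 2.0 to 2.2 (2.81%) beyond a trough at 1.4 to 1.6 (0.725%). Non-targeting rows also had their main peak low, with 10.9% between -1.4 and -1.2. Of the well-read nucleolar factor guides, 20 had a ratio below 0 (80.0%), against 65.8% of well-read protein-coding guides and 69.2% of such non-targeting rows. A further 5 lay between 0 and 1.5, and none lay above 1.5, where 8.91% of well-read protein-coding guides were found. These bounds were set after the distribution had been seen, and what separates the modes was not tested.

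**Figure D3:**
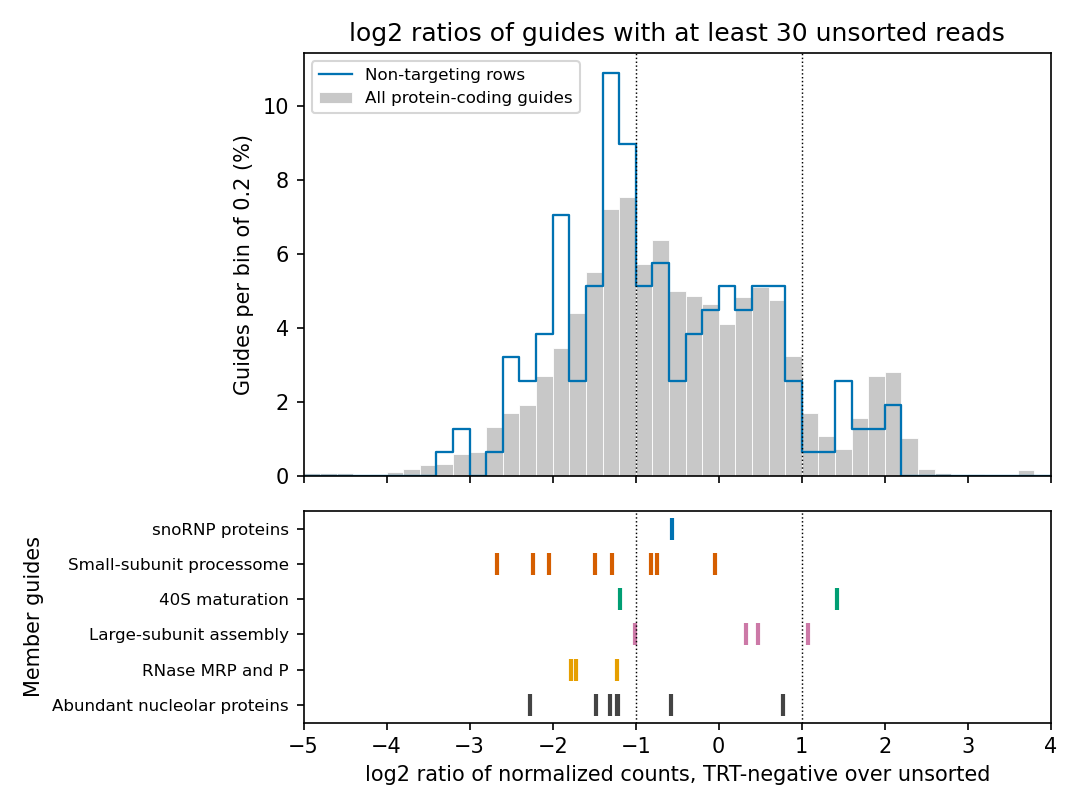
Top, percent of guides per bin of 0.2 in the log2 ratio of normalized counts (TRT-negative over unsorted) for all protein-coding guides (bars) and non-targeting rows (line) with at least 30 unsorted reads. Bottom, each of the 25 nucleolar factor guides as a tick in the row of its role, on the same axis, with dotted lines at a 2-fold change either way. Of the ticks, 20 lie below 0, and none lies under the highest mode at 2.0 to 2.2.

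Among the well-read guides of all members, the lowest ratio was that of a guide against the small-subunit processome. Of 132 guides for its 22 genes, 9 were read before and 19 after sorting, none was enriched, and the 8 well-read guides ranged from -2.67 to -0.05 with a median of -1.39. DDX47, an RNA helicase (chromosome 12, 12813316 to 12829981, plus strand), had this ratio, on 1 guide that went from 1200 to 181 reads (log2 -2.67, exact interval -2.91 to -2.45). Of all well-read protein-coding guides, 4.17% had a lower ratio. UTP15, a subunit of the complex that binds the start of the precursor and also acts in its transcription, went from 1637 to 332 reads (log2 -2.24) on 1 guide. NOL11, of the same subcomplex, went from 491 to 114 (log2 -2.04).

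Less extreme were IMP3, part of the U3 snoRNP-associated Mpp10 complex, from 1391 to 476 reads (log2 -1.49), and the GTPase BMS1, from 1138 to 449 (log2 -1.29). Outside 2-fold lay DDX49, from 779 to 425 (log2 -0.82), WDR43, from 56 to 32 (log2 -0.74), and UTP6, from 1250 to 1167 (log2 -0.05). Each of these 8 processome genes rested on 1 well-read guide, and no second guide of the same gene could be set beside it, apart from WDR43 guides at 0 and 1 and at 0 and 23 reads. UTP18 had 1 guide with 24 and 16 reads.

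The 3 well-read guides against RNase MRP and P subunits, of 2 genes, were all lower by over 2-fold, against 39.2% of well-read protein-coding guides. With non-targeting scaling, and relative to the protein-coding median, 2 of the 3 were. POP1, the largest protein subunit, had 2, one from 538 to 150 reads (log2 -1.78) and one from 851 to 352 (log2 -1.22). The second of these is the guide that lay inside 2-fold under both other scalings. With the RPP38 guide from 415 to 121 described above, the median was -1.72 over 3 guides. POP4 had guides at 0 and 30 and at 0 and 49 reads, read only after sorting.

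NCL, which encodes the abundant nucleolar protein nucleolin that binds rRNA precursors and their genes, was the member with most well-read guides. The gene lies on chromosome 2 from 231453531 to 231483641 (hg38, minus strand). Its guides went from 250 to 86 reads (log2 -1.48), from 272 to 112 (log2 -1.22), from 1393 to 579 (log2 -1.21) and from 1733 to 673 (log2 -1.31). The 4 guides, 2 from each half-library, were all lower by over 2-fold, with a spread of 0.26 on the log2 scale, and their sum went from 3648 to 1450 reads. Of the 74 protein-coding genes with at least 4 well-read guides, NCL was the 1 gene with all of them lower by over 2-fold (1.35%). This call ended under both other scalings. With non-targeting scaling 2 of the 4 NCL guides were lower by over 2-fold (log2 -1.18 to -0.92), and relative to the protein-coding median none was (-0.84 to -0.58). Its spread was the smallest of the 74, whose median spread was 2.77, a comparison made after the NCL values had been seen. The 4 ratios lay beside the fullest bins of all guides, and 22.0% to 31.2% of well-read protein-coding guides had lower ones. Without NCL, 11 of 21 well-read guides were lower (52.4%), with a median of -1.01.

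DDX21, an RNA helicase of rRNA transcription and processing, had guides on both sides of 0. Of its 3 well-read guides, one went from 419 to 83 reads (log2 -2.27), one from 540 to 350 (log2 -0.57) and one from 3889 to 6441 (log2 0.78, exact interval 0.72 to 0.84). The last was the most-read guide of all members in both libraries. The 3 guides spread over 3.05 on the log2 scale, against a median spread of 2.00 in the 282 protein-coding genes with exactly 3 well-read guides. Of the 1963 protein-coding genes with at least 2 well-read guides, 14.9% had all of them lower by over 2-fold, and of the 5 such members NCL and POP1 did. With non-targeting scaling, and relative to the protein-coding median, 0 of the 5 members did, against 8.51% and 3.11% of the protein-coding genes.

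**Figure D4:**
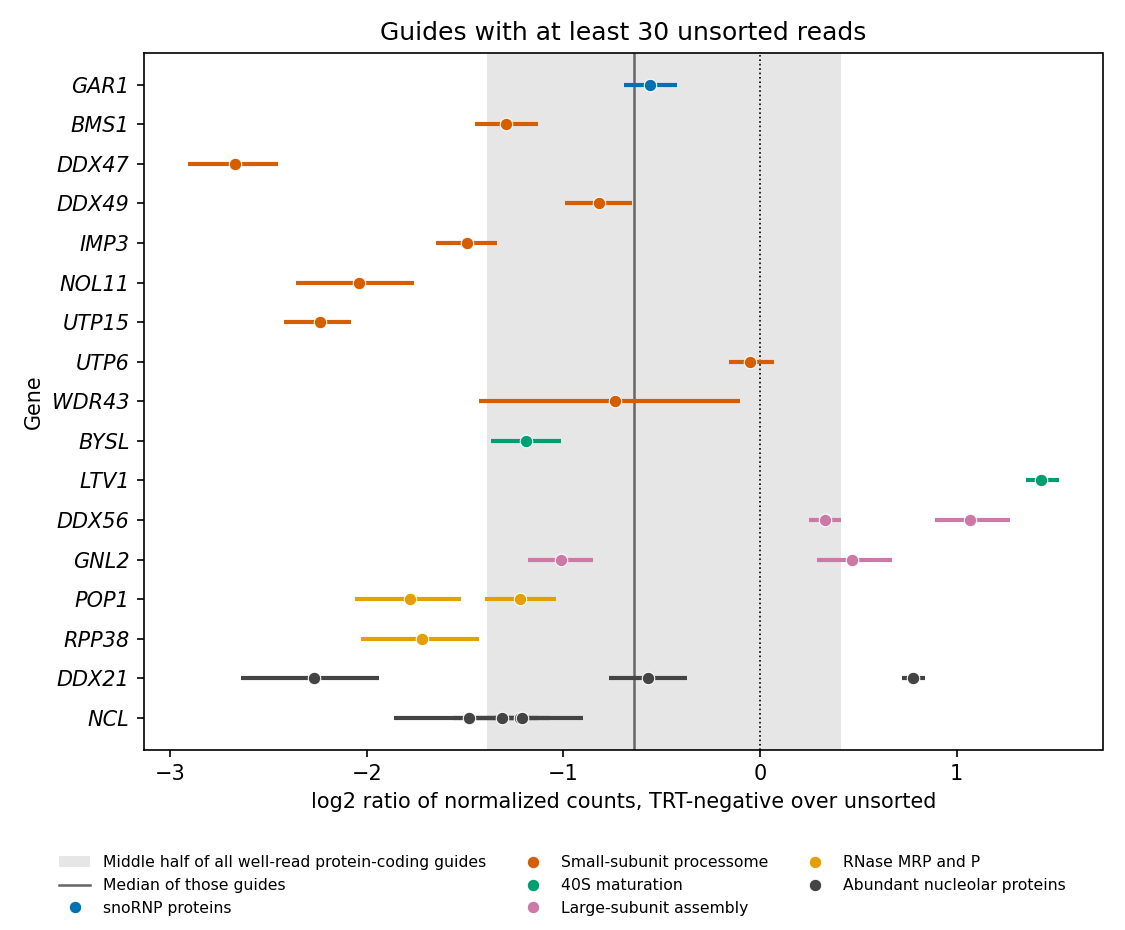
log2 ratio of normalized counts, TRT-negative over unsorted, for each of the 25 nucleolar factor guides with at least 30 unsorted reads, by gene and coloured by role, with exact 95% intervals (counting error only). The grey band spans the quartiles of all well-read protein-coding guides (-1.39 to 0.41) and the solid line their median (-0.64). The 4 NCL guides lie together between -1.48 and -1.21, the 3 DDX21 guides lie from -2.27 to 0.78, and LTV1 is highest at 1.43.

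Late 40S maturation held the highest ratio among the well-read guides of all members. LTV1, a factor released from pre-40S particles in the cytoplasm (chromosome 6, 143843338 to 143863812, plus strand), had 1 guide that went from 1593 to 4140 reads (log2 1.43, exact interval 1.35 to 1.52), 2.70-fold higher. Of all well-read protein-coding guides, 90.8% had a lower ratio. A second LTV1 guide went from 7 to 48 reads, but another went from 18 to 0, at least 5.78-fold lower. All of these were of half-library B. BYSL (bystin), which acts in the same pathway, went from 874 to 369 reads (log2 -1.19) on 1 guide. Guides of RIOK1, a kinase of the late pre-40S particle, were read only after sorting, at 7, 24 and 43 reads.

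In the large-subunit (60S) pathway the well-read guides were spread on both sides of 0. The 4 guides had a median of 0.40, and besides DDX56 they belonged to GNL2, a nucleolar GTPase. One GNL2 guide went from 922 to 440 reads (log2 -1.01), another from 398 to 533 (log2 0.47) and one from 0 to 43. Of the 96 guides of this pathway, 5 were read before and 16 after sorting, and 12 were read only after it. Those below the threshold included BOP1 at 11 and 39 reads and PES1 at 39, of the trimeric complex that also holds WDR12. The helicase DDX18 had 21 and 41 reads, the nuclease subunit LAS1L had 27, NIP7 had 14, and RRS1 had 23 beside a guide with 2 and 0 reads.

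Of 48 guides against the snoRNP proteins, 1 was read in the unsorted library (95% interval 0.0527% to 11.1%, against 10.5% of protein-coding guides) and 8 in the TRT-negative library (16.7%, against 22.6%). The 1 guide, against the box H/ACA protein GAR1, went from 1143 to 749 reads (log2 -0.56), while another GAR1 guide went from 0 to 6. Besides FBL, the box C/D core proteins NOP56 and NOP58 had guides read only after sorting, at 40 and 32 reads, as did the snoRNP chaperone NOLC1 at 46 and NHP2 at 2.

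The remaining processome genes were also read only after sorting. The U3 protein RRP9 had guides at 31 and 32 reads, UTP20 was at 49, NOL6 at 44, WDR75 at 40, UTP3 at 35, the rRNA acetyltransferase NAT10 at 15 and MPHOSPH10 at 2. Of the 34 guides read only after sorting that were not enriched, 19 had 30 to 59 reads and 15 had fewer than 30. From a single library none of these can be set against replicate error.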

How the data were processed

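Guide cassettes in genomic DNA of 1 unsorted and 1 TRT-negative sample were amplified and sequenced. The authors deposited raw counts of reads per guide, and a table of normalized counts (a signal), in which raw counts are scaled by 0.982 (unsorted) or 1.02 (TRT-negative). The submitters' processing notes name MAGeCK and hg38. How reads were assigned to guides is not given in the sources used here. Deposited comparison tables (ratios, scores, p-values, ranks) were not used, and guide sequences were not analysed here.

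The log2 ratio was computed from the normalized counts with a pseudocount of 1. Enrichment meant exceeding the 95th percentile across 2000 non-targeting rows, well-read guides had at least 30 unsorted reads, and 2-fold was the limit for higher or lower. Reads and intervals were computed from raw counts, with Clopper-Pearson, Poisson or conditional exact 95% limits, and a floor of 3 reads bounded folds over 0. The design did not allow a count test, since each condition had 1 library. Gene positions came from GENCODE 44 (hg38), which held all 60 genes. Calculations ran in Python 3.11.15 with scipy 1.17.1, pandas 2.3.3 and numpy 2.4.6, and figures were drawn with matplotlib 3.10.9. Counts of guides read before sorting, enriched, higher or lower, and of genes with an enriched guide, were checked on altered data. In these the observed counts were shuffled over protein-coding rows and known values were planted in member rows.

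The members and comparison lists were chosen with earlier results of these data known. Genes were named when they had an enriched guide, a well-read guide past 2-fold, 1 of the 5 guides with most unsorted reads, or no read at all. From the comparison lists, the first 3 other biogenesis factors by enriched guides and then TRT-negative reads were named, and RRN3. Members beyond this rule were named after their values had been seen, to account for all 60. Alternatives were other scalings, pseudocounts (0.5 and 5), thresholds, read minimums, single half-libraries and the removal of rows with identical neighbours. Centring on the protein-coding median, a minimum on the mean of both libraries, the removal of NCL and calls by gene under each scaling were added after the data had been seen.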

Additional observations from a re-analysis of the deposited data

How the results depend on the processing

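Of 73 alternative values of the members' shares, counts and median ratio, 62 lay inside the main 95% interval and 11 outside. Restricted to half-library A, 22.8% of member guides were read after sorting (protein-coding 22.9%) and 15.0% only after it (13.5%), so that the latter share lay above the protein-coding one, the reverse of the whole library. In half-library B these shares were 13.9% (22.3%) and 6.67% (11.8%), and 1.67% of the genes had an enriched guide (8.23%). At the 99th percentile of non-targeting rows, 0.278% of guides were enriched (1 guide, of FBL; protein-coding 0.499%) and 1.67% of genes (2.94%). Among guides with at least 30 unsorted reads, 0 of 25 guides and 0 of 17 genes were enriched, by construction, since an enriched guide needs few unsorted reads. The share of well-read guides lower by over 2-fold was 36.0% with scaling to non-targeting totals (protein-coding 28.0%) and 24.0% with centring on the protein-coding median (18.0%), which was chosen after seeing the data. The members' median ratio lay below the protein-coding median in all 11 alternatives in which it was computed. The scalings move both medians alike, and most other settings keep nearly the same guides, so these values are not separate support. By half-library, the medians were -1.25 against -0.67 in A and -0.74 against -0.63 in B. No paired analysis was possible because each condition has 1 library. The main limits are this lack of replicates and the low coverage, with 81.1% of member guides unread in both libraries, so most genes rest on 1 guide or none, and loss of a guide before sorting cannot be told apart from uneven representation.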
